A study of Gossypium hirsutum with 6 samples.

Results

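The 200 gene models described here were those most restricted to elongating cotton fiber, among 77357 models of 1 deposited expression table. Restriction is relative to leaf and to ovule at flowering, the only other tissues in that table. Members were chosen from the measured values. A model had to reach 20 FPKM (fragments mapped to a model, relative to the model's length and the library's total) or more in both fiber libraries, with the libraries within 1.5-fold of each other, which left 6144 candidates. Candidates were ranked by the mean fiber FPKM plus 1, divided by the higher of the leaf and ovule mean FPKM plus 1, and the 200 highest were taken. Fiber against leaf and fiber against ovule were therefore used to choose the members, and values of fiber against those tissues are given as a description with no test.

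Polyadenylated RNA of the allotetraploid upland cotton Gossypium hirsutum acc. TM-1 was sequenced from 3 tissues, with 2 libraries each. These were young leaves, ovules at 0 DPA (days post anthesis, counted from flowering) and elongating fibers at 14 DPA, with no treatment and no mutant named for any of them. The study describes the 2 libraries of a tissue as biological replicates from harvests of greenhouse plants, and p-values measure the spread between these libraries. Each library is a whole tissue, in which fewer cells of a type and less RNA per cell cannot be told apart. Fiber and ovule libraries also differed in age, with no ovule of 14 DPA among them, so tissue and age cannot be told apart.

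A cotton fiber is a single cell of the outer epidermis of the ovule. Fibers start to protrude around the day of flowering, then elongate for weeks with no cell division, and later fill their wall with cellulose. Elongation is known to call on proteins that loosen the wall, on arabinogalactan proteins, on tubulins and other parts of the cytoskeleton, on lipid transfer proteins, on the synthesis of very-long-chain fatty acids and on ethylene. Ovules at 0 DPA still carry their epidermis with fiber initials, while leaves carry other kinds of hairs. The table pairs its identifiers with no gene names, and 0 of them match an entry of RefSeq's table for upland cotton, the one annotation used here, so no member could be assigned to such a family and the tissue labels could not be checked with marker genes. For the same reason members are given by identifier, with no position and no sequence.

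The libraries differed in depth. Summed FPKM ran from 927473 to 1014584, but FPKM is relative to the library's total, so its sum does not measure library size. Depth was recovered from whole-number steps in low values, relative to that of fiber replicate 1. Both leaf libraries and ovule replicate 2 were at 0.704 to 0.7395, ovule replicate 1 at 0.867 and fiber replicate 2 at 0.964. A value in leaf or ovule therefore rested on fewer reads than the same value in fiber.

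The members took a large part of the fiber transcriptome and almost none of the others. They held 15.1% and 15.7% of the summed FPKM of the fiber libraries (15.4% ± 0.398, SD, n = 2), against 0.176% ± 0.01002 in leaf (SD, n = 2) and 0.234% ± 0.0209 in ovule (SD, n = 2). The mean fiber level of a member ran from 23.2 to 29284 FPKM with a median of 154, where the median candidate stood at 45.7 FPKM. Mean levels had a median of 0.942 FPKM in leaf and 2.35 FPKM in ovule, compared with 17.3 and 29.1 FPKM over all candidates. Of the sum of the 3 tissue means of a member, the fiber mean made up 93.4% at the least and 98.0% at the median (51.5% over candidates), and 185 of the 200 members passed 95%.

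In all 200 members the lower fiber library stood above the highest of the 4 leaf and ovule libraries, as it did in 27.6% of the 42214 models with a mean of at least 0.5 FPKM over the 6 libraries. The rule fixed that contrast, so nothing is read from it. All 200 members passed the filter of 0.5 FPKM, which their fiber level alone assured. Fiber replicates were close, with a median ratio of the higher to the lower library of 1.03 (1.04 over candidates) and a highest of 1.30, and 174 members lay within 1.1-fold.

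**Figure D1:**
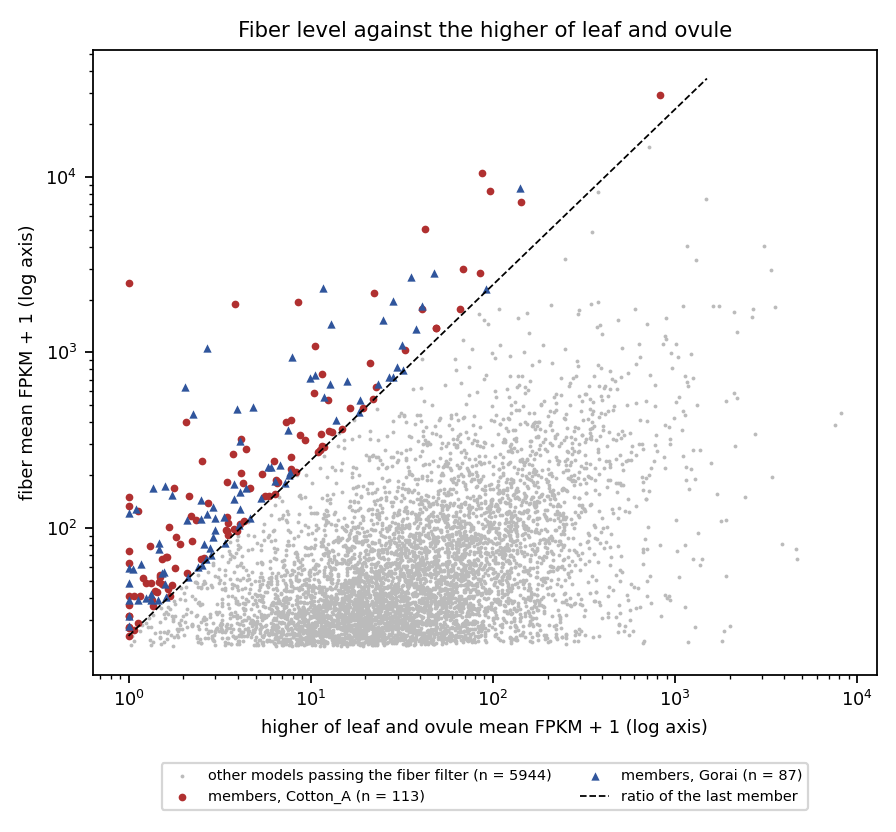
Mean fiber FPKM plus 1 against the higher of the leaf and ovule mean FPKM plus 1, both on log axes, 1 point per model passing the fiber filter. The 200 members (113 Cotton_A, circles; 87 Gorai, triangles) lie on or above the dashed line at a ratio of 24.2, the other 5944 candidates in grey lie below it, and members range in fiber from 23.2 to 29284 FPKM.

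The ratio itself fell off steeply. It was 2471 at rank 1, 22 members passed 100, another 37 lay from 50 to 100, and 141 were under 50, with a median of 36.2 against 1.58 over candidates. Members with the highest ratios were also higher in fiber. The ratio is made from the fiber, leaf and ovule means, so the medians by rank only describe the ranking. The median fiber level was 424 FPKM over ranks 1 to 50, 141 over ranks 51 to 100, 110 over ranks 101 to 150 and 103 over ranks 151 to 200. The median leaf level stayed near 1 FPKM in these blocks (0.654 to 1.48), while the median ovule level went from 1.615 FPKM in the first block to 2.96 in the last.

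The cut at rank 200 fell in a continuous series. Just inside it were Cotton_A_18603 at a ratio of 24.42 (37.1 and 43.1 FPKM in fiber), Cotton_A_35786 at 24.37 (94.8 and 96.0), Gorai.013G001600 at 24.27 (78.7 and 82.7), Cotton_A_25504 at 24.23 (291 and 282) and Cotton_A_25682 at 24.22 (23.6 and 22.8, and listed at 0 in leaf and ovule). A ratio of a model listed at 0 elsewhere is its fiber mean plus 1 and no measure of a fold. Just outside were Gorai.006G106100 at 24.04 (337 and 352 FPKM in fiber), Cotton_A_31609 at 23.95 (122 and 93.0), Cotton_A_30305 at 23.79 (280 and 267), Gorai.007G300100 at 23.70 (202 and 195.8) and Cotton_A_20883 at 23.62 (28.3 and 31.1). A ratio over 10 was reached by 503 candidates, members included.

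Among the 20 highest-ranked members, the first had no value outside fiber. Cotton_A_38811 was listed at 0 in all 4 leaf and ovule libraries and at 2778 and 2162 FPKM in the fiber libraries. The reads behind it are described below with those of the other members.

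Ranks 2 to 4 were models with low but measurable leaf and ovule levels. Cotton_A_31797 stood at 3.93 and 1.73 FPKM in leaf and at 2.32 and 1.36 in ovule, with 1845 and 1925 in fiber. Gorai.004G020900 stood at 1.44 and 0.507 FPKM in leaf and at 1.92 and 1.498 in ovule, with 1060.2 and 1049 in fiber. Gorai.012G006600 stood at 1.35 and 0.201 FPKM in leaf and at 1.096 and 0.988 in ovule, with 629 and 644 in fiber. In each of the 3, the replicates of leaf differed by more than 2-fold, and leaf and ovule libraries overlapped in Cotton_A_31797 and Gorai.012G006600 but not in Gorai.004G020900, where both ovule libraries were higher.

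Ranks 5 to 8 were alike in that no member of them separated leaf from ovule at the threshold used below. Cotton_A_11364 stood at 9.24 and 0 FPKM in leaf and at 15.0 and 0 in ovule, with 1809 and 2066 in fiber. Gorai.007G057400 stood at 8.25 and 6.25 FPKM in leaf and at 11.4 and 9.98 in ovule, with 2304.5 and 2353 in fiber. Gorai.006G240600 stood at 1.40 and 0.675 FPKM in leaf and at 1.70 and 0.831 in ovule, with 445 and 446 in fiber. The next, Cotton_A_35822, had a 0 in 1 ovule library, and it stood at 1.09 and 1.06 FPKM in leaf and at 0 and 2.08 in ovule, with 397 and 407 in fiber.

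Ranks 9 to 12 were at or next to 0 outside fiber. Cotton_A_12262 was listed at 0 in all 4 leaf and ovule libraries and at 151 and 146 FPKM in fiber. Cotton_A_02177 was listed at 0 in the same 4 libraries and at 148 and 118 FPKM in fiber. Gorai.002G229500 stood at 0.383 and 0 FPKM in leaf and at 0 and 0.729 in ovule, with 153 and 181 in fiber. Of these 4 models, Gorai.002G229500 was the one with a value above 0 outside fiber, and in each tissue it had that value in 1 of the replicates. Gorai.005G224400, again listed at 0 in all 4 libraries, stood at 119 and 123 FPKM in fiber.

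Of ranks 13 to 16, the first was the only member among them with leaf above ovule. Gorai.009G028500 stood at 2.58 and 3.33 FPKM in leaf and at 1.51 and 0.955 in ovule, with 497 and 447 in fiber. Cotton_A_22457, which was also the member with the second highest fiber level, stood at 29.9 and 28.8 FPKM in leaf and at 89.6 and 83.6 in ovule, with 10269 and 10636 in fiber. Gorai.002G001100 stood at 2.25 and 1.09 FPKM in leaf and at 7.72 and 6.04 in ovule, with 930 and 949 in fiber. The remaining model of these, Cotton_A_01743, had both ovule libraries above both leaf libraries too, at 16.5 and 13.7 FPKM in leaf and at 52.2 and 31.1 in ovule, with 4994 and 5119 in fiber.

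Ranks 17 to 20 mixed very low and moderate levels outside fiber. Gorai.009G242500 stood at 0.108 and 0.104 FPKM in leaf and at 0.0874 and 0 in ovule, with 121 and 133 in fiber. Gorai.006G119900 stood at 4.37 and 5.00 FPKM in leaf and at 14.3 and 9.68 in ovule, with 1437 and 1446 in fiber. Cotton_A_26192 stood at 0 and 0.153 FPKM in leaf and at 0.257 and 0 in ovule, with 125 and 123 in fiber. Gorai.006G119900 had both ovule libraries above both leaf libraries, while the other two stayed at 0.257 FPKM or less outside fiber. Gorai.002G242100 was listed at 0 in both leaf libraries, and it stood at 0.659 and 0.516 FPKM in ovule and at 169 and 173 in fiber. A high rank thus came from 2 kinds of model, those near or at 0 outside fiber with fiber levels of 118 to 2778 FPKM, and those of up to 10636 FPKM in fiber with a measurable level elsewhere.

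**Figure D2:**
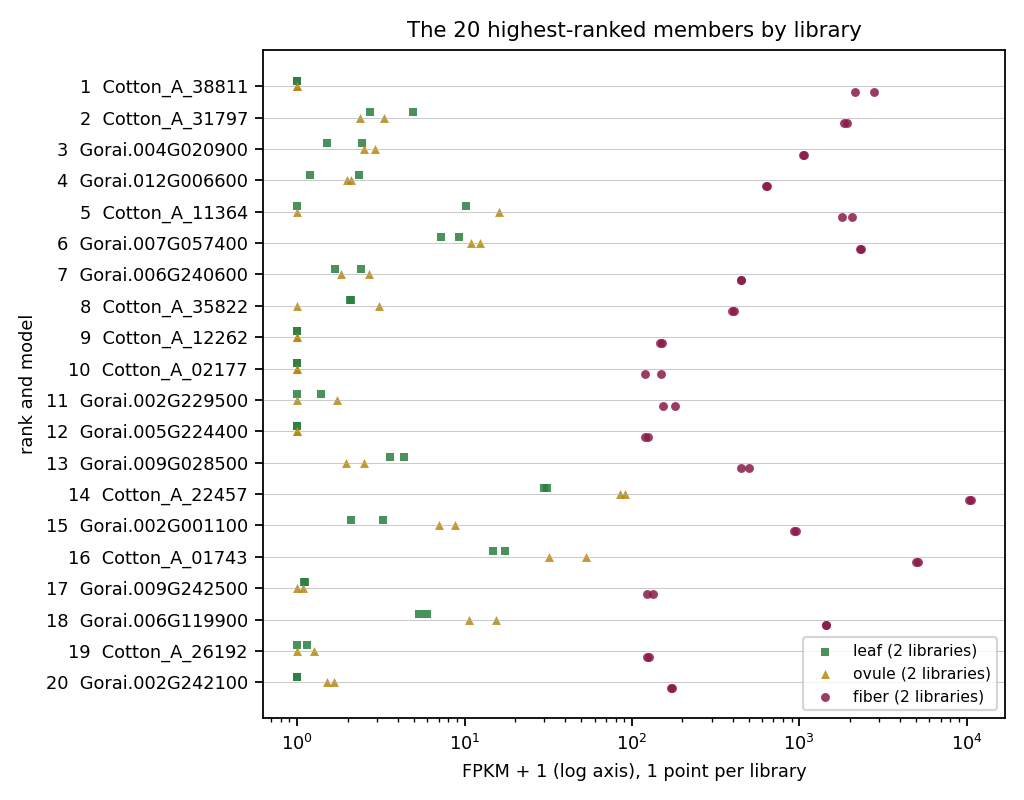
FPKM plus 1 (log axis) of the 20 highest-ranked members, 1 point per library, with 2 leaf (squares), 2 ovule (triangles) and 2 fiber (circles) libraries for each model. Fiber values sit far to the right of all leaf and ovule values, by construction of the rule, and Cotton_A_22457 has the highest level both in fiber (10269 and 10636 FPKM) and in ovule (89.6 and 83.6 FPKM) among the 20.

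The members' share of fiber was held by a few models. The highest member made up 19.9% of the members' summed fiber FPKM, the 5 highest 43.4% and the 10 highest 54.6%. By mean fiber level, 33 members lay from 20 to under 50 FPKM, 38 from 50 to under 100, 81 from 100 to under 500, 19 from 500 to under 1000, and 29 at 1000 or more. Of the 100 models with the highest fiber level in the whole table, 30 were members.

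Cotton_A_39373, at rank 104, had the highest fiber level of any model in the table. It stood at 817 and 836 FPKM in leaf, and at 357 and 303 in ovule, with 30253 and 28315 in fiber, so that it was far from silent in the other tissues. After Cotton_A_22457 came Gorai.011G128500, at 14.8 and 8.86 FPKM in leaf and at 155 and 126 in ovule, with 8622 and 8664 in fiber. Both of these had measurable levels in all 6 libraries.

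Cotton_A_38175 stood at 13.8 and 10.3 FPKM in leaf and at 108 and 82.3 in ovule, with 8310 and 8265 in fiber. Cotton_A_20921 stood at 0 and 8.12 FPKM in leaf and at 157 and 128 in ovule, with 7263 and 7192 in fiber. In 4 of these 5 most abundant members the ovule libraries lay above the leaf libraries, and in Cotton_A_39373 the leaf libraries lay above. Over the 42214 models with a mean of at least 0.5 FPKM, the shares were 59.0% and 28.4%, so nothing is read from 5 models.

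Restriction to fiber therefore covered members that differed widely in absolute level elsewhere. In 63 members both the leaf and the ovule mean were under 1 FPKM, in 62 the higher of them was 1 to 5 FPKM, in 45 it was 5 to 20, and in 30 it was 20 or more. These 30 members had fiber means from 542 to 29284 FPKM (median 1757). Their levels outside fiber thus passed the 20 FPKM that the rule asked of fiber itself.

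At the other end, 18 members were listed at 0 in all 4 leaf and ovule libraries, 12 of them Cotton_A and 6 Gorai models. Their fiber means ran from 23.2 to 2470.0 FPKM with a median of 38.8. A further 37 members were at 0 in at least 1 of the 4 libraries, 55 in all, and 145 were above 0 in each. Both leaf libraries were at 0 in 28 members and both ovule libraries in 21. Because the table holds FPKM rather than counts, and an exact 0 can also be a failed estimate, these models are given as listed at 0, and their ratios serve only to rank them.

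Reads could be recovered for part of the members. Within a library, the values of a model are whole multiples of what 1 read is worth, so the smallest whole numbers of reads that give all of its values within 0.05 of a read were taken as a lower bound. That succeeded for 140 of the 200 members (70.0%; 68.1% of candidates), 101 of the 113 Cotton_A and 39 of the 87 Gorai members. Over both fiber libraries the median was 2163.5 reads and the range 2 to 93456. The median member rested on 40.5 reads over the 4 leaf and ovule libraries together, with 34 members at 0 to 9 reads there, 71 at 10 to 99 and 35 at 100 or more. The fiber level of most of these members was therefore well sampled. Lower bounds cannot show that levels outside fiber were poorly sampled, and the rule chose models low there. The remaining members gave no read number.

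The best sampled members were Cotton_A_39373, Gorai.006G119900 and Cotton_A_00250. Cotton_A_39373 had 49133 and 44323 recovered reads in fiber, 935 and 989 in leaf, and 503 and 364 in ovule. Gorai.006G119900 had 22883 and 22186 reads in fiber, 49 and 58 in leaf, and 198 and 114 in ovule. Cotton_A_00250, at rank 112, had 21349 and 20508 reads in fiber, 350 and 422 in leaf, and 596 and 428 in ovule, for FPKM of 2840 and 2830.4 in fiber, 66.1 and 77.1 in leaf, and 91.4 and 77.0 in ovule. For these members every leaf and ovule value was backed by 49 reads or more.

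Against this, 6 of the 140 members had fewer than 20 recovered reads in the 6 libraries, and the next lowest had 224. The highest-ranked member was one of the 6. The 2778 and 2162 FPKM of Cotton_A_38811 stood in the ratio of 4 to 3 reads, the smallest whole numbers that fit, and at those numbers a read would be worth 695 FPKM in fiber replicate 1. Over the 134 members with 20 or more recovered reads, a read was worth a median of 0.108 FPKM (0.0334 to 6.51), close to the 0.116 over candidates. How many reads Cotton_A_38811 had beyond that minimum is not known from the table, and its place at rank 1 is given with that limit.

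Gorai.005G224400 (119 and 123 FPKM in fiber), Cotton_A_24966 (60.9 and 63.2 FPKM, rank 39) and Cotton_A_13856 (39.0 and 40.5 FPKM, rank 82) each came out at a minimum of 1 read in each fiber library. Cotton_A_09074 (25.3 and 26.2 FPKM), named after its values were seen, did so too. Cotton_A_33702 (78.1 and 67.5 FPKM, rank 31) had a minimum of 6 and 5 reads. All 6 were listed at 0 in leaf and ovule. With values in only 2 libraries, whole-number steps can be seen only where reads are few, so the other 12 members listed at 0 outside fiber gave no read number, and the true numbers of the 6 can be whole multiples of those given. If the numbers are near these minimums, a level in leaf or ovule well below that of fiber was not detectable in the shallower libraries.

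Cotton_A_11364 and Cotton_A_20921 stood between these and the rest, as their reads were worth 6.51 and 5.91 FPKM each in fiber replicate 1. In Cotton_A_11364 the leaf and ovule values came from 3 reads in all. In Cotton_A_20921 the leaf value of 8.12 FPKM was 1 read, and the ovule libraries held 23 and 16.

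**Figure D3:**
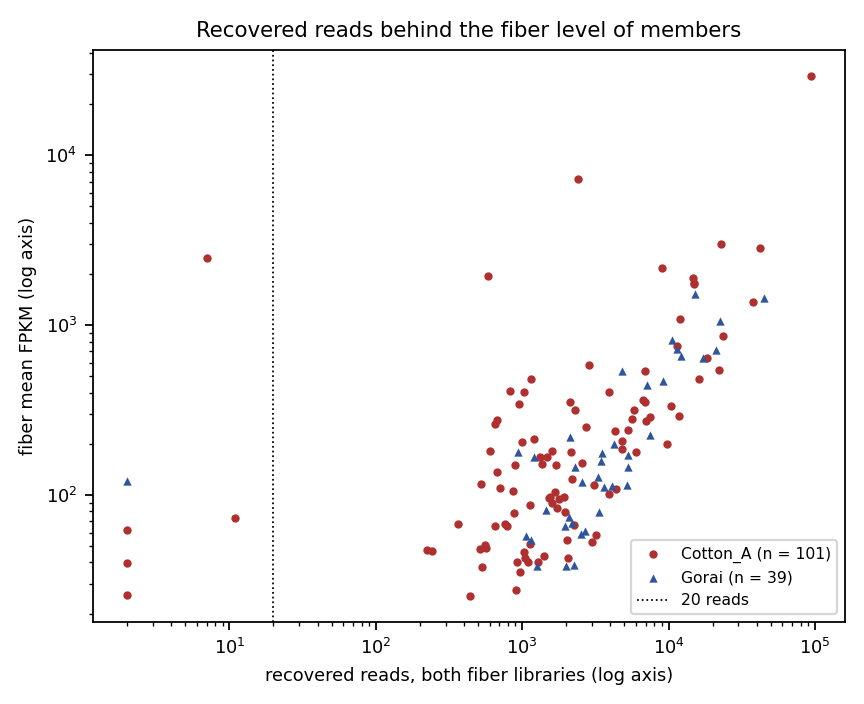
Mean fiber FPKM (log axis) against recovered reads over both fiber libraries (log axis) for the 140 members with recovered reads, 101 Cotton_A (circles) and 39 Gorai (triangles), with a dotted line at 20 reads. Recovered reads are lower bounds. The 6 points left of the line are at 2 to 11 reads, and one of them, Cotton_A_38811, is at a mean of 2470.0 FPKM and 7 reads.

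Whether members differed between ovule and leaf (OL) was not fixed by the rule, which bounds both levels through the higher of them and treats them alike. OL was tested with limma on log2(FPKM + 1) over all 42214 models, with calls made where the adjusted p (Benjamini-Hochberg) was under 0.01 and the fold change over 2 on that scale, which understates the change of low values. Of the 200 members, 59 (29.5%) were higher in ovule, where 31.1% of all models tested were, and 8 (4.0%) were higher in leaf, where 15.7% of all models were. The other 133 passed in neither direction. On this scale a model under 1 FPKM in both tissues cannot pass 2-fold, so 63 of these members could not be called in either direction. Of the 137 members at 1 FPKM or more in leaf or ovule, 59 (43.1%) were higher in ovule and 8 (5.84%) in leaf, and over all models at such levels the shares were 33.5% and 16.9%. Of the 75 members at 5 FPKM or more, 39 (52.0%) were higher in ovule and 6 (8.0%) in leaf, against 39.7% and 19.98% of all models at that level. The members had also been limited in both tissues by their fiber level, so these shares are a description. The median change was 0.37 on the log2 scale over members and 0.48 over all models, and the range over members was -2.77 to 5.56.

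How many members passed in each direction depended on the scaling of the libraries. With median-of-ratios scaling, which moved the median change of all models from 0.48 to 0.01, 36 members (18.0%) were higher in ovule, against 18.1% of all models, and 17 (8.5%) in leaf, against 21.9% of all models. With quantile normalization 40 (20%) were higher in ovule, against 21.6% of all models, and 15 (7.5%) in leaf, against 20.04% of all models. The share of called members that were higher in ovule went from 88.1% to 67.9% and 72.7%, and over all models from 66.5% to 45.3% and 51.9%. The fiber replicates, which the rule required to be close, also entered the estimate of the spread. With the leaf and ovule libraries alone, 56 members (28.0%) were higher in ovule, against 30.6% of all models, and 7 (3.5%) in leaf, against 15.5%.

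By means, ovule was above leaf in 133 members, leaf above ovule in 49, and the 18 members listed at 0 were equal. Both ovule libraries lay above both leaf libraries in 105 members (52.5%), against 59.0% of all models tested, and both leaf libraries above both ovule libraries in 31 (15.5%), against 28.4%. The 18 members listed at 0 could meet neither order. The rule also limited both levels, so these shares are a description. Among called members with recovered reads, the 41 higher in ovule had a median of 97 reads over the leaf and ovule libraries (lowest 11), and the 6 higher in leaf had a lowest of 5.

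**Figure D4:**
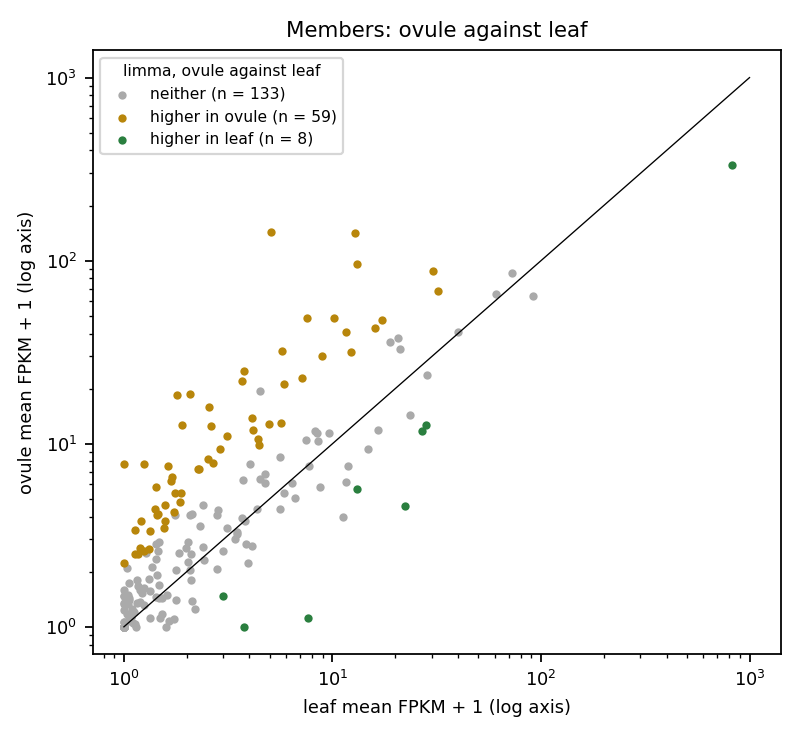
Mean ovule FPKM plus 1 against mean leaf FPKM plus 1 of the 200 members, both on log axes, coloured by the limma call of ovule against leaf, with a line at equality. The 59 members higher in ovule lie above the line, the 8 higher in leaf lie below it, and the members under 1 FPKM in both tissues, near the lower left corner, are all in the group of 133 called in neither direction.

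The widest difference toward ovule was in Cotton_A_20921, which was also abundant in fiber, as the rule requires of a member with a high ovule level. In Cotton_A_20921 the ovule mean was 142 FPKM and the leaf mean 4.06, a log2 change of 5.56 (SE 1.01, limma, Benjamini-Hochberg adjusted p = 0.0045). The leaf libraries of this model disagreed, as 1 had no read and the other 1 read. The change was 3.97 without leaf replicate 1 and 7.16 without leaf replicate 2. The adjusted p (limma, Benjamini-Hochberg) ran from 6.18e-05 to 0.0265 over the alternatives, where values under 0.001 came from fits with 1 leaf library, whose spread was taken from the other groups, with the call lost in 6 of 10, among them when either ovule replicate 1 or ovule replicate 2 was left out (limma, adjusted p = 0.0265 and 0.0227). Gorai.011G128500 changed by 3.50 (SE 0.24, limma, Benjamini-Hochberg adjusted p = 8.71e-05), from a leaf mean of 11.8 FPKM to an ovule mean of 140.5.

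Gorai.009G438200, at rank 180, stood at 1.14 and 0.473 FPKM in leaf and at 17.2 and 17.5 in ovule, with 447 and 465 in fiber. Its OL change was 3.37 (SE 0.17, limma, Benjamini-Hochberg adjusted p = 9.4e-06). In this member both ovule libraries lay far above both leaf libraries, and the ovule replicates nearly coincided.

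Toward leaf, the widest difference was in Gorai.005G230200, at rank 166. It stood at 7.24 and 5.99 FPKM in leaf (55 and 47 reads) and at 0.107 and 0.125 in ovule (1 read each), with 200.7 and 199.5 in fiber, and its OL change was -2.77 (SE 0.11, limma, Benjamini-Hochberg adjusted p = 3.65e-06). Cotton_A_09397, at rank 23, stood at 27.0 and 15.7 FPKM in leaf and at 3.29 and 3.86 in ovule, next to 2118 and 2220.2 in fiber, for an OL change of -2.24 (SE 0.24, limma, Benjamini-Hochberg adjusted p = 0.000391). In both, leaf and ovule libraries were well apart.

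Cotton_A_08207, at rank 35, stood at 2.24 and 3.25 FPKM in leaf, was listed at 0 in both ovule libraries, and stood at 257 and 267 in fiber. Its OL change was -1.89 (SE 0.14, limma, Benjamini-Hochberg adjusted p = 4.93e-05), which rested on 2 and 3 recovered reads in leaf and none in ovule. The most abundant member, Cotton_A_39373, was also among the 8 called higher in leaf, with a change of -1.33 (SE 0.08, limma, Benjamini-Hochberg adjusted p = 1.8e-05).

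The identifier prefixes are Cotton_A, used for models of the A-genome diploid Gossypium arboreum, and Gorai, used for models of the D-genome diploid Gossypium raimondii. Of the members, 113 were Cotton_A (56.5%, Wilson 95% interval 49.6 to 63.2, which covers counting error only) and 87 Gorai. Cotton_A models made up 51.9% of candidates, from which the members were drawn, 48.8% of models tested and 51.9% of the table. The members were taken by rank and are not independent draws, so the interval is not set against these shares, which were not tested. Cotton_A members held 68.1% of the members' summed fiber FPKM, with Cotton_A_39373 among them.

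Otherwise the members of both prefixes were alike in level. The median fiber mean was 152 FPKM over Cotton_A and 158 over Gorai members, the median of the higher level outside fiber 2.75 and 2.78 FPKM, and the median ratio 34.9 and 37.7. At 1000 FPKM or more in fiber were 17 Cotton_A and 12 Gorai members. Called higher in ovule were 30 Cotton_A members (26.5%, against 30.7% of all Cotton_A models) and 29 Gorai members (33.3%, against 31.5% of all Gorai models). Higher in leaf were 4 Cotton_A members (3.54%, against 15.9%) and 4 Gorai members (4.598%, against 15.5%). These shares include members under 1 FPKM in both tissues, which could not be called, and are a description. A model of one prefix can have a near-identical counterpart under the other, and how reads shared by such copies were divided affects the values of single models.

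Few members lay next to each other in identifier number. There were 4 such pairs, and no further pair lay within 5 steps. In the pair Cotton_A_14459 and Cotton_A_14460, the fiber levels were 49.2 and 52.1 FPKM for the first and 597 and 571 for the second. The models on either side, Cotton_A_14458 and Cotton_A_14461, stood at 0.993 and 1.19 FPKM and at 0.527 and 0.573 FPKM in fiber. Cotton_A_14458 was instead highest in leaf, at 27.8 and 28.6 FPKM.

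In the pair Cotton_A_33701 and Cotton_A_33702, the first stood at 56.9 and 59.0 FPKM in fiber on 1603 and 1601 reads, and the second is the model of at least 6 and 5 reads above. Gorai.012G021600 (306 and 316 FPKM in fiber) and Gorai.012G021700 (111 and 113) were both called higher in ovule, with OL changes of 1.48 (SE 0.20, limma, Benjamini-Hochberg adjusted p = 0.000643) and 1.11 (SE 0.12, adjusted p = 0.000245). The change of Gorai.012G021700 fell under 2-fold, and its call was lost, with median-of-ratios scaling (0.84), with quantile normalization (0.76) and without leaf replicate 2 (0.998). Their neighbours Gorai.012G021500 and Gorai.012G021800 were at 0.505 FPKM or less in every library.

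The remaining pair held the most abundant member. Cotton_A_39374, next to Cotton_A_39373, stood at 0.306 and 0.592 FPKM in leaf and at 4.23 and 2.04 in ovule, with 318 in each fiber library, and was called higher in ovule (change 1.47, SE 0.26, limma, Benjamini-Hochberg adjusted p = 0.00236). The pair thus went in opposite directions in OL, under both other scalings too, but the call of Cotton_A_39374 was lost without leaf replicate 1 (limma, adjusted p = 0.0223) and without leaf replicate 2 (0.0121), with an adjusted p of 0.00102 to 0.0223 over all alternatives. On the other side, Cotton_A_39372 was abundant in every tissue, with 3136 and 2718 FPKM in fiber, 2153 and 1923 in ovule, and 3007 and 3749 in leaf.

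The number after the Gorai prefix ran from 1 to 13. Field 9 held the most members, 16 of its 350 candidates (4.57%), and field 12 the highest share of its candidates, 10 of 153 (6.54%). Fields 1, 11 and 13 held 3, 3 and 4 members (1.42%, 1.52% and 1.67% of candidates). These shares are counts of few models and were not tested.

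When the same rule was turned to the other tissues, the 200 models most restricted to leaf had a median leaf level of 530.2 FPKM and held 28.9% ± 0.475 of the leaf libraries (SD, n = 2), and the 200 most restricted to ovule had a median of 125 FPKM and held 5.91% ± 0.00536 of the ovule libraries (SD, n = 2). The fiber members lay between these sets, at 154 FPKM and 15.4%. The ratio at rank 200 was 51.7 for leaf, 24.9 for ovule and 24.2 for fiber. Levels in the other tissues were under 1 FPKM in 34 of the leaf models, 88 of the ovule models and 63 of the fiber members, and 14, 17 and 18 were listed at 0 in all 4 other libraries. Pairs next to each other in number were 5 for leaf, 9 for ovule and 4 for fiber. The Cotton_A share was 55.0%, 56.5% and 56.5%. Each of these sets was chosen on its own tissue, so the figures are set side by side with no test.

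Which models counted as members depended on the pseudocount of 1 more than on any single library. With 0.1 in its place, 158 of the 200 were kept, and with 5 in its place, 152. A fiber minimum of 50 FPKM kept 166, while one of 10 FPKM kept all 200, an outcome that was nearly fixed, since a model needs a fiber mean of 23.2 FPKM to reach the last member's ratio even when at 0 elsewhere. Further, median-of-ratios scaling kept 179. Ranking by the lower fiber library over the highest leaf or ovule library kept 193, as did dropping the limit on the fiber replicates. Leaving out 1 library at a time kept 185 to 195, and leaving out models of under 10 recovered reads kept 195.

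**Figure D5:**
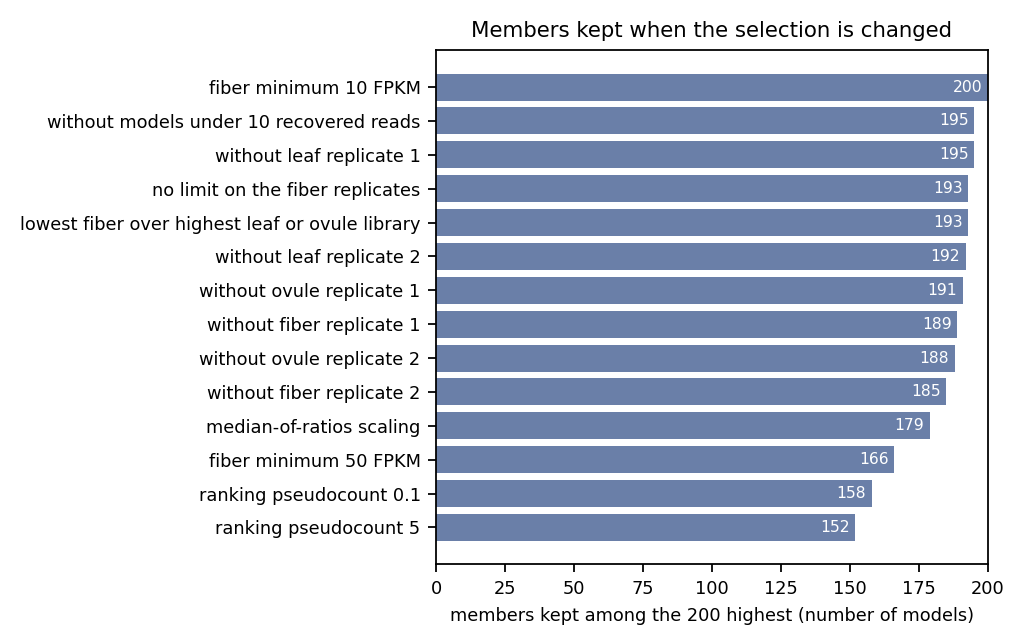
Number of the 200 members that stayed among the 200 highest when 1 choice of the selection was changed, as horizontal bars from 0. The bars run from 152 with a ranking pseudocount of 5 to 200 with a fiber minimum of 10 FPKM, where members could hardly be displaced, and each of the bars for a left-out library is at 185 or more.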

How the data were processed

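The authors deposited 1 table of FPKM values, with 1 column for each of 6 mRNA-seq libraries (2 each of leaf, ovule and fiber) and replicates kept apart. As the study's methods describe, strand-specific single-end reads were mapped with TopHat, uniquely mapped reads were kept and abundance was estimated with Cufflinks. The submitters' processing notes also name CASAVA 1.8. The versions of both mapping tools were not given in the sources used here. The methods name the TM-1 genome as the reference, but the identifiers are those of other annotations, and this was not resolved. FPKM is a share of a library, so abundant transcripts lower the values of others.

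Groups came from the sample labels. Models with a mean of 0.5 FPKM or more were fitted with limma 3.58.1 in R 4.3.3 (log2(FPKM + 1), tissue only, variance trend, robust), with p-values adjusted over 42214 models. The study's own rule was a change of over 2-fold and P under 0.01 (analysis of variance), applied here with the fiber libraries included. An exact permutation test of 2 against 2 libraries cannot go under 0.333. Relative depth and lower bounds of reads came from whole-number ratios of values. Scripts were tested on simulated data. Members and lists were chosen with earlier results of these data known. Named models were ranks 1 to 20, the 5 highest in fiber, 5 on each side of rank 200, the 3 widest OL changes each way among called members, members next to each other in number, and the 3 with the fewest and the most reads. Alternatives were other pseudocounts, filters, scalings, ranking rules, a replicate block and leaving out each library. The one setting added after seeing the data left members of under 20 recovered reads out of the OL counts.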

Additional observations from a re-analysis of the deposited data

How the results depend on the processing

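Values outside fiber, where the rule chose low models, rested on a median of 40.5 recovered reads over 4 libraries. This is a lower bound, found for 140 of the 200 members. The number of members higher in ovule (59, with 31.1% of all models) was 36 with median-of-ratios scaling (18.1% of all models), 40 with quantile normalization (21.6%), 71 with a pseudocount of 0.1 (35.1%) and 61 by the study's rule (27.6%), and 40 and 75 when members were ranked with pseudocounts of 0.1 and 5. The number higher in leaf (8, with 15.7% of all models) was 17 (21.9%), 15 (20.04%), 12 (16.4%) and 9 (14.3%) under those settings, and 5 and 12 under the rankings. The cause was not tested. As the study's rule was applied here, P came from an analysis of variance over all tissues, fiber included. The study's methods do not say which tissues entered its own analysis of variance. Members were chosen on fiber, so for them this P does not test OL. The counts of 61 and 9 are given as a description only. Leaving out 1 library gave 185 to 195 members kept and 55.0 to 59.5% Cotton_A. For OL, leaving out a leaf or ovule library left 1 library in its group, so no counts are given. Without members of under 20 recovered reads, a setting chosen after seeing the data, the counts stayed at 59 and 8. With the replicate block, 58 members were higher in ovule and 8 in leaf, where 13075 and 6596 of all 42214 models were. The labels do not say whether same-numbered libraries were paired. Deviations of same-numbered libraries correlated at -0.06 (leaf and ovule), -0.06 (leaf and fiber) and 0.05 (ovule and fiber). With 2 libraries per tissue, such values cannot show whether the libraries shared plants or a harvest. Of 100 OL changes of 10 named models recomputed under these alternatives, 0 changed sign. All 10 were called in the main fit and some were named for wide OL changes, so this was nearly assured. Calls were lost in Cotton_A_20921 and Gorai.012G021700 under settings that kept both leaf and both ovule libraries. Cotton_A_39374 lost its call only in fits with 1 leaf library.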
